A study of Mus musculus with 6 samples.

Results

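Expression of 10 genes of cell adhesion was examined in CD4+ dendritic cells (DC) of the mouse spleen that lack the transcription factor Runx3. They are Esam, Cadm1, Jam2, Jam3, F11r, Vcam1, Icam1, Icam2, Pecam1 and Cdh5, chosen by symbol as junctional and immunoglobulin-like adhesion molecules, with Cdh5 as the cadherin among them. Each of the 10 had 1 probe set annotated with its symbol alone, among 19938 genes that had one, and none had a probe set shared with another gene. RNA of 3 Runx3-/- and 3 WT (Runx3+/+) male mice aged 6 weeks was hybridised to 1 array per mouse, and the mice formed 3 littermate pairs of 1 Runx3-/- and 1 WT animal. The Runx3-/- mice were not cell-specific knockouts, and every cell of the animal carried the disrupted gene. Cells were sorted by flow cytometry as CD11c+ MHCII+ cells by CD4 and CD8. The sample labels also name an Esam population in the sort, but the gate was not described, so the values of Esam itself come from cells that may have been chosen by its protein.

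Adhesion molecules of this kind hold cells together or let them recognise each other. Esam and the 3 junctional adhesion molecules (F11r, also called JAM-A, with Jam2 and Jam3) are immunoglobulin-like proteins best known from tight junctions of endothelial and epithelial cells, and Esam protein also divides CD11b+ DC of the spleen into a Notch2-dependent Esam-hi and an Esam-low subset. Cadm1 is a nectin-like molecule that marks the CD8+ type of DC and binds Crtam on activated lymphocytes. Vcam1, Icam1 and Icam2 are ligands of leukocyte integrins, Pecam1 binds to itself across cell contacts, and Cdh5 (VE-cadherin) is the cadherin of endothelial adherens junctions.

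The arrays were alike in level, with median log2 values of 6.57 to 6.65. Runx3 itself stood at 9.21 ± 0.08 in Runx3-/- DC and 11.19 ± 0.07 in WT DC (log2, SD, n = 3 each), so that 25.3% of the WT signal remained (limma, adjusted p = 0.0027, and 0.061 with the litter as a replicate block). Background was set at a log2 value of 6.5, and probe sets at or above it in 1 array or more were tested. Of the 10 adhesion genes 8 were tested, while Jam2 and Jam3 lay below background in all 6 arrays. Past an adjusted p of 0.05 (limma, Benjamini-Hochberg over 19149 probe sets) 2 of the 8, Cadm1 and Cdh5, were higher in Runx3-/- DC and 0 were lower. Over all tested probe sets 1.56% were called, 0.856% higher and 0.7% lower. The 3 Runx3-/- values lay above the 3 WT values for 4 of the 8, Cadm1, Vcam1, Cdh5 and F11r, against 7.48% of all tested probe sets. The change was positive for 7 of the 8, with a median of 0.39 on the log2 scale, beside -0.04 over all tested probe sets. One of these genes, Cdh5, entered the test only through its Runx3-/- values, so its place in these counts was fixed in part by the filter.

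**Figure D1:**
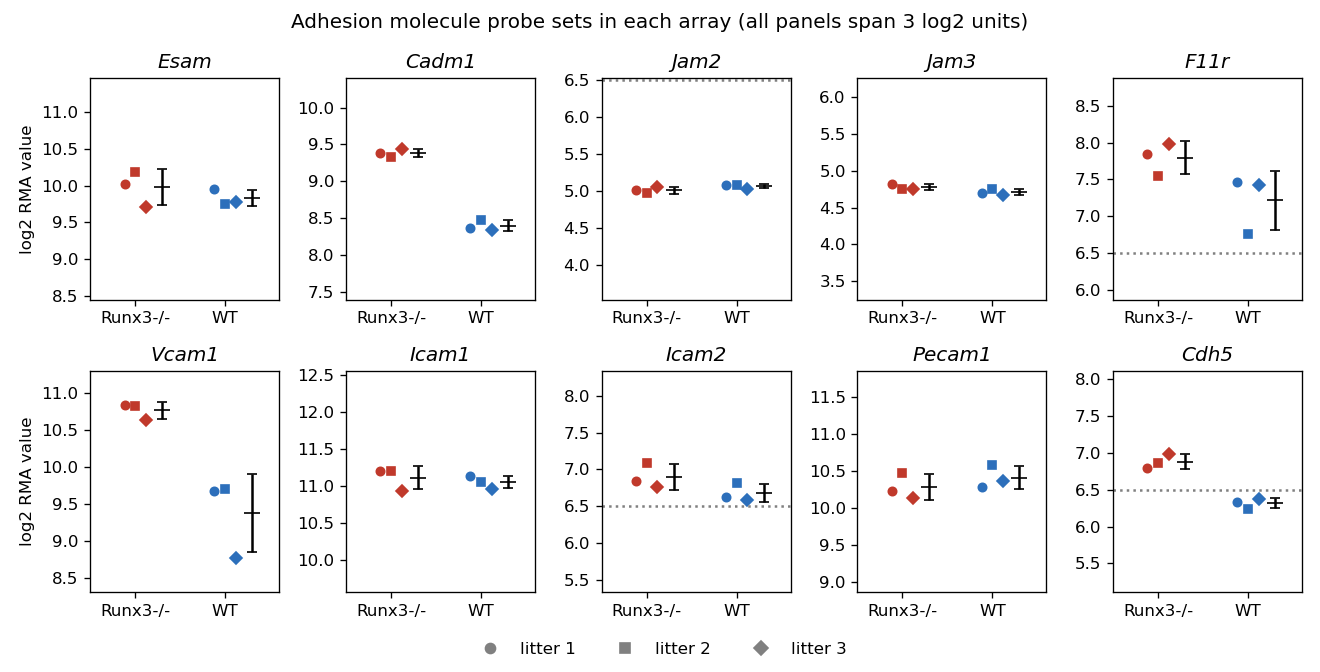
Log2 RMA value (vertical axis) of each of the 10 adhesion molecule probe sets in the 3 Runx3-/- arrays (red) and the 3 WT arrays (blue), with genotype means and SDs (n = 3) in black, marker shapes for the litter and a dotted line at 6.5 where that background falls in the panel. Every panel spans the same number of log2 units, and the genotypes lie apart for Cadm1 (Runx3-/- mean 9.39, WT mean 8.40), Vcam1 (Runx3-/- 10.77, WT 9.38), Cdh5 (Runx3-/- 6.88, WT 6.32) and F11r (Runx3-/- 7.79, WT 7.22).

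Cadm1 RNA was 1.99-fold higher in the absence of Runx3. The log2 values (probe set 10585048, Entrez gene 54725) were 9.39, 9.33 and 9.44 in Runx3-/- DC of litters 1, 2 and 3, against 8.36, 8.48 and 8.35 in their WT littermates. All Runx3-/- arrays lay above all WT arrays, and neither genotype spread far, with SDs of 0.06 in Runx3-/- and 0.07 in WT DC. On the log2 scale the change was 0.99 (SE 0.07), with a 95% interval of 0.81 to 1.17, a fold change of 1.99 (interval 1.76 to 2.25, limma, adjusted p = 0.013). Within the litters the differences were 1.03, 0.85 and 1.10. Only 1.37% of the tested probe sets changed by as much in either direction. The exact permutation p, two-sided, was 0.1, which is the lowest value possible with 3 arrays per genotype. The change stayed between 0.96 and 1.04 over 14 alternatives, but the adjusted p rose to 0.074 with the litter as a replicate block, 0.069 with the methods' analysis of variance, 0.074 without WT 1 and 0.056 without Runx3-/- 3.

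Esam RNA did not differ between the genotypes beyond the spread of the arrays. The log2 values (probe set 10584317, Entrez gene 69524) were 10.03, 10.19 and 9.71 in Runx3-/- DC and 9.96, 9.75 and 9.78 in WT DC. The groups overlapped, with both the highest and the lowest of the 6 values among the Runx3-/- arrays. The means were 9.98 ± 0.24 in Runx3-/- and 9.83 ± 0.11 in WT DC (SD, n = 3 each), and the difference on the log2 scale was 0.15 (SE 0.14, limma, adjusted p = 0.66, exact permutation p = 0.4, two-sided). The 95% interval of the fold change ran from 0.880 to 1.39, so that changes within it cannot be told from none with this number of arrays. Esam was higher in Runx3-/- than in WT DC in litter 1 (0.07) and litter 2 (0.44) and lower in litter 3 (-0.07). The change was 0.04 without Runx3-/- 2 and 0.28 without Runx3-/- 3.

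Vcam1 had the largest change of the 8 tested adhesion genes but missed the adjusted threshold. Its log2 values (probe set 10501608, Entrez gene 22329) were 10.85, 10.83 and 10.63 in Runx3-/- DC and 9.67, 9.70 and 8.77 in WT DC. The genotypes did not overlap, and WT 3 lay well below the other WT arrays. Means were 10.77 ± 0.12 in Runx3-/- and 9.38 ± 0.53 in WT DC (SD, n = 3 each), a fold change of 2.62 with an interval of 1.70 to 4.04, and a log2 difference of 1.39 (SE 0.26, limma, unadjusted p = 0.0015, adjusted p = 0.067). A change of 1.5-fold or more together with an unadjusted p no higher than 0.05 was met by Vcam1 and Cadm1, and by 3.95% of all tested probe sets. Without WT 3 the log2 change was 1.08 and the adjusted p 0.045, and with a prior variance that follows the mean level the adjusted p was 0.047. In the remaining 12 alternatives the adjusted p was above 0.05, and the full range was 0.045 to 0.22.

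Cdh5, the endothelial cadherin, lay just above background in all Runx3-/- arrays and just below it in all WT arrays. The log2 values (probe set 10574438, Entrez gene 12562) were 6.80, 6.86 and 6.99 in Runx3-/- DC, against 6.34, 6.24 and 6.37 in WT DC. Because the WT signal was not above background, the fold is a lower bound, at least 1.30-fold higher, with the WT arrays set to 6.5. The measured means of 6.88 ± 0.10 in Runx3-/- and 6.32 ± 0.07 in WT DC (SD, n = 3 each) gave a log2 difference of 0.56 (SE 0.08, limma, adjusted p = 0.036). The adjusted p ranged from 0.027 to 0.17 over 13 alternatives, with 0.094 for the replicate block, 0.070 with a prior variance that follows the mean level, 0.12 with the analysis of variance and 0.074 to 0.17 when any single array was left out.

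F11r, the junctional adhesion molecule JAM-A, had log2 values (probe set 10351623, Entrez gene 16456) of 7.85, 7.55 and 7.98 in Runx3-/- DC and 7.47, 6.75 and 7.43 in WT DC. Runx3-/- was the higher littermate in each litter, by 0.38, 0.79 and 0.56, and the lowest value belonged to WT 2. The log2 change of 0.58 had an SE of 0.22 (fold change 1.49, interval 1.03 to 2.16) and did not pass (limma, unadjusted p = 0.037, adjusted p = 0.28). It was 0.35 without WT 2. The other junctional adhesion molecules stayed below background, with log2 values of 4.97 to 5.05 in Runx3-/- and 5.03 to 5.09 in WT DC for Jam2 (probe set 10436666), and of 4.75 to 4.83 in Runx3-/- and 4.68 to 4.76 in WT DC for Jam3 (probe set 10591967). For neither was a fold given, and their RNA was not detectable above background on these arrays.

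The integrin ligands Icam1 and Icam2 and the homophilic Pecam1 did not pass the test. Icam1 (probe set 10583519), the main ligand of the integrin LFA-1, had log2 values of 11.20, 11.20 and 10.93 in Runx3-/- DC and 11.13, 11.05 and 10.96 in WT DC. These ranges overlapped, and the 95% interval of the fold change was 0.879 to 1.23 (adjusted p = 0.83). Icam2 (probe set 10392177), another LFA-1 ligand, stood near background at 6.84, 7.09 and 6.76 in Runx3-/- DC and 6.62, 6.82 and 6.59 in WT DC. The ranges overlapped, but in each litter Icam2 was higher in the Runx3-/- mouse, by 0.21, 0.27 and 0.17, and the adjusted p was 0.42 without and 0.22 with the replicate block. Pecam1 (probe set 10392221), also called CD31, had values of 10.23, 10.47 and 10.14 in Runx3-/- DC and 10.28, 10.58 and 10.36 in WT DC. It was the only tested member with a negative change, at -0.13 (SE 0.12, adjusted p = 0.67), and was lower in the Runx3-/- mouse of each litter, by at most 0.22.

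**Figure D2:**
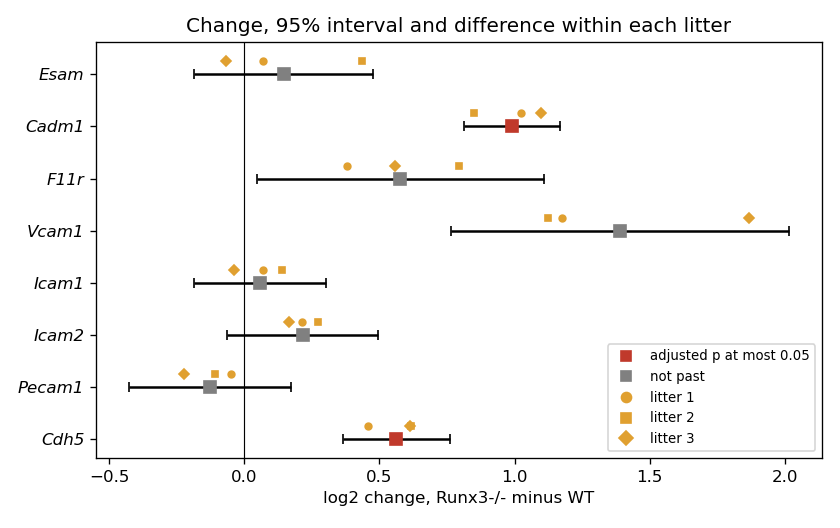
Log2 change of Runx3-/- minus WT (horizontal axis) for the 8 tested adhesion genes, as squares with their 95% interval (limma), red where the adjusted p was at most 0.05 and grey otherwise. Orange symbols above each square are the differences within the 3 litters, which lie on both sides of 0 for Esam and Icam1 and on 1 side for the other 6 genes.

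**Figure D3:**
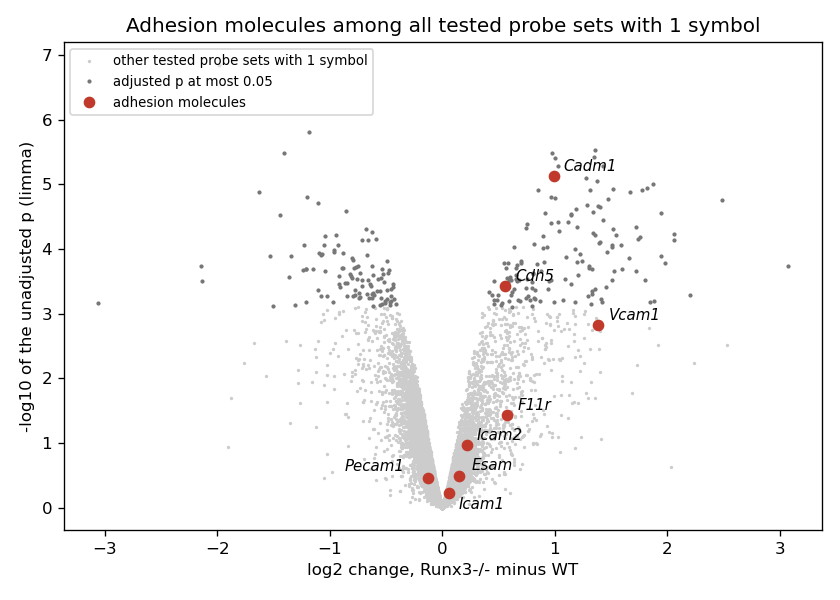
Log2 change of Runx3-/- minus WT (horizontal axis) and -log10 of the unadjusted p (vertical axis, limma) for the 11022 tested probe sets with 1 symbol, with the 8 adhesion genes in red and other called probe sets in dark grey. Cadm1 and Cdh5 lie among the called probe sets, Vcam1 combines the largest change of the 8 with a p just short of them, and Esam, Icam1, Icam2 and Pecam1 lie near 0.

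Genes whose pattern over the 6 arrays was most like that of Esam and Cadm1 were sought among 9922 genes, as a description over arrays that share the genotype contrast. Cadm1 was most like Cx3cr1, a chemokine receptor (Pearson r = 0.998), Rasa3, a GTPase-activating protein of Ras (0.997), and Gpr137b-ps (0.996). The log2 changes of Cx3cr1 and Rasa3 were 1.37 and 1.31, with an adjusted p of 0.013 for each. For Gpr137b-ps the change was 0.36 (adjusted p = 0.059). Esam was most like Ephx1, an epoxide hydrolase (r = 0.974), Tesk2, a kinase (0.961), and Gnl2, a nucleolar GTPase (0.961), with log2 changes of 0.20, 0.10 and 0.03 and an adjusted p of 0.74 or more. Ephx1 was above background in only 1 Runx3-/- array. Among the adhesion genes themselves the arrays ordered Cadm1 most like Cdh5 (r = 0.96) and Vcam1 (0.92), and Esam most like Icam1 (0.90). These correlations span 6 arrays, and those of Cadm1 chiefly follow the difference between the genotypes.

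The counter-receptors of these molecules, many of them integrins, held no called gene. Of 16 measured genes 13 were tested, 0 passed by limma and 8 had an unadjusted p of at most 0.05, a level that 15.9% of all tested probe sets reached. The median change was 0.13. Itgb7, an integrin beta chain whose pairing with Itga4 binds Vcam1 and Madcam1, was nearest to the threshold, with values of 9.29, 9.26 and 9.47 in Runx3-/- DC and 9.87, 9.84 and 9.77 in WT DC (log2 change -0.49, SE 0.08, adjusted p = 0.051). Itga9, an alpha chain that binds Vcam1 together with Itgb1, had a change of 1.04 (SE 0.24, adjusted p = 0.12), and Itgb1 itself of 0.27 (SE 0.07, adjusted p = 0.12). WT 3 was the lowest of the WT arrays for Itga9, at 7.22 against 7.42 and 8.17 in WT 1 and WT 2, as it was for Vcam1. Crtam, the lymphocyte partner of Cadm1, was below background in every array.

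Other immunoglobulin-like and cadherin adhesion molecules changed individually. Of 38 measured genes 17 were tested, with a median change of 0.03. Past the adjusted threshold 2 rose and 1 fell, against 0.856% and 0.7% of all tested probe sets. An unadjusted p of at most 0.05 was reached by 10, 6 higher and 4 lower, against 15.9% of all tested probe sets. Bcam, among the 6, entered the test only through 1 Runx3-/- array. Pvr (CD155), a nectin-like relative of Cadm1 and the ligand of Cd226, was at 8.68, 8.77 and 8.44 in Runx3-/- DC and 7.65, 7.17 and 7.08 in WT DC, a 2.52-fold rise (adjusted p = 0.029). Cd84, a homophilic receptor of the SLAM family, rose, at 7.82, 7.52 and 7.60 in Runx3-/- DC against 6.39, 6.63 and 6.48 in WT DC (log2 change 1.15, SE 0.11, adjusted p = 0.014), but only 1 of 3 WT arrays was above background, so no fold is given. Cd244a, a SLAM receptor that binds Cd48, fell 1.59-fold, with 10.93, 10.87 and 10.82 in Runx3-/- DC and 11.60, 11.51 and 11.53 in WT DC (adjusted p = 0.017). With the replicate block the adjusted p was 0.078 to 0.081 for these 3 genes, and without WT 1, WT 3, Runx3-/- 1 or Runx3-/- 3 none of them passed. Among the relatives of Cadm1, Cadm3 had a change of 0.31 (SE 0.13, adjusted p = 0.31) and Cadm4 lay below background. The epithelial molecules Epcam and Cdh17, named here after their values were seen, had negative changes larger in size than that of Vcam1, at -1.76 (SE 0.43, adjusted p = 0.12) and -1.57 (SE 0.42, adjusted p = 0.15). For Epcam the values were 6.89, 6.70 and 6.84 in Runx3-/- DC and 9.15, 7.52 and 9.05 in WT DC, so that the WT arrays themselves differed widely.

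Cytoplasmic partners, which tie adhesion molecules to the cytoskeleton and to junction scaffolds, had a median change of 0.06 over 26 tested genes. An unadjusted p of at most 0.05 was reached by 8, 6 higher and 2 lower, against 15.9% of all tested probe sets. Past the adjusted threshold there was 1 call, against 1.56% of all tested probe sets. This was Epb41l3, a membrane skeleton protein that binds the cytoplasmic tail of CADM1 in human cells. Its log2 values were 7.93, 7.85 and 7.78 in Runx3-/- DC and 7.06, 7.17 and 7.06 in WT DC, a 1.69-fold rise (SE of the log2 change 0.07, adjusted p = 0.016, and 0.081 with the replicate block). It lay higher in every Runx3-/- array than in any WT array, as did 7.48% of all tested probe sets. In the same list this held also for Jup, Ctnnd1, Mpp1, Tiam1 and Cask. Actn1, Afdn and Ptpn6 lay lower in every Runx3-/- array than in any WT array, as did 14.9% of all tested probe sets. Their log2 changes were -0.37 (limma, adjusted p = 0.063), -0.61 (adjusted p = 0.074) and -0.10 (adjusted p = 0.52). The call of Epb41l3 was lost without WT 1, WT 3, Runx3-/- 1 or Runx3-/- 3. Beta-catenin (Ctnnb1), which links cadherins to actin, was at 0.07 (SE 0.08) and moesin (Msn), a linker of Icam1 and Icam2 to actin, at 0.09 (SE 0.08), and neither passed.

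Several members are best known from cells other than DC, so marker lists of those cells were read beside them. In a sorted bulk sample, a change in the share of a cell type and a change of RNA per cell cannot be told apart. The sort markers were high in both genotypes, with Cd4 at 12.72 in Runx3-/- and 12.69 in WT DC and Itgax at 12.72 in Runx3-/- and 12.83 in WT DC, whereas Cd8a was at 6.15 in Runx3-/- and 5.76 in WT DC, below background in all arrays but Runx3-/- 3. Genes of endothelial cells, which are known to express Cdh5, were mostly not detected. Of 22 measured, 18 were below background in every array, among them Cldn5, Tie1, Tek, Emcn, Erg and Sox17, and of the 4 tested 0 passed (limma, with 2 at an unadjusted p of at most 0.05). The summed linear value of the list was 1380 to 1500 in Runx3-/- and 1150 to 1240 in WT arrays. The 18 genes below background add to these sums. Of the 4 tested genes, Kdr, a receptor of endothelial growth factor, stood at 8.05, 6.88 and 8.30 in Runx3-/- DC and 6.18, 6.55 and 6.30 in WT DC (adjusted p = 0.14). The log2 change was 0.64 for Eng (SE 0.13, limma, adjusted p = 0.087), 0.12 for Stab2 (SE 0.12) and -0.15 for Vwf (SE 0.17). The part of these values in the Cdh5 result was not tested. Markers of platelets, which are known to carry Esam and Pecam1, were below background throughout for 7 of 8 genes, and the eighth, Ppbp, reached it in 1 WT array.

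Many markers of red pulp macrophages, which are known to carry Vcam1, were higher in Runx3-/- DC, as Vcam1 was, but not all. Of 15 tested 9 rose past the adjusted threshold and 0 fell, against 0.856% and 0.7% of all tested probe sets. The median change was 1.30, and the 4 with the smallest p were C1qa (2.54-fold), Adgre4 (3.30-fold), Nr1h3 (2.86-fold) and Spic (2.63-fold). Cd5l, which was called, and Siglec1, which was not, entered the test only through Runx3-/- arrays. Their place in these counts was fixed in part by the filter. The summed linear value of the list was 21200 to 24500 in Runx3-/- and 11200 to 14700 in WT arrays, and WT 3 was the lowest array for both this sum and Vcam1. Adgre1 and Adgre4, which were high in both genotypes, add most to this sum. Their means were 12.46 and 12.12 in Runx3-/- DC and 12.45 and 10.40 in WT DC. Cd163 and Vsig4 were below background in all arrays. The tested markers not called were Treml4 (change 0.97, SE 0.20), Siglec1 (0.51, SE 0.12), Hpgd (0.52, SE 0.13), Slc40a1 (1.07, SE 0.30), Hmox1 (change 0.22, SE 0.17) and Adgre1 (change 0.01, SE 0.11). An unadjusted p of at most 0.05 (limma) was reached by 13 of the 15, Cd5l and Siglec1 among them. All 13 were higher in Runx3-/- DC, and 15.9% of all tested probe sets reached that level. Leaving out single arrays, an alternative added after seeing the data, gave 0 to 6 called markers (0 without WT 1 or Runx3-/- 3, 2 without WT 3 or Runx3-/- 1, 5 without Runx3-/- 2), and 0 passed with the replicate block. The part of such cells in the change of Vcam1 was not tested. Genes of CD8+ DC, which carry Cadm1, gave 1 call among 15 tested, Irf8 (2.51-fold higher, adjusted p = 0.042), against 1.56% of all tested probe sets. The change was positive for 12 of the 15, with a median of 0.30. An unadjusted p of at most 0.05 was reached by 8, 6 of them higher and 2 lower in Runx3-/- DC, against 15.9% of all tested probe sets. The 2 lower genes were Wdfy4 (change -0.49, SE 0.08, limma, adjusted p = 0.051) and Batf3 (change -0.47, SE 0.15, adjusted p = 0.20). For both, all Runx3-/- arrays lay below all WT arrays. Rab7b and Cd8a entered the test only through Runx3-/- arrays, so their place in these counts was fixed in part by the filter. Xcr1, a defining gene of that subset, had a change of 0.68 (SE 0.18, adjusted p = 0.16) with all Runx3-/- arrays above all WT arrays, and Clec9a, another, of 0.61 (SE 0.36, adjusted p = 0.47) with overlapping groups. For Clec9a the values were 7.07, 7.13 and 8.33 in Runx3-/- DC, so that Runx3-/- 3 stood apart. The summed value of the list, to which genes high in both genotypes such as Id2, Wdfy4 and Ppt1 add most, was 23200 to 26500 in Runx3-/- and 23500 to 23900 in WT arrays. The part of such cells in the change of Cadm1 was not tested. Genes of CD4+ DC gave 2 calls among 15, both lower, Irf4 (1.54-fold) and Tbx21 (1.57-fold), against 0.7% of all tested probe sets called lower. An unadjusted p of at most 0.05 was reached by 8 of them, 7 lower and 1 higher, against 15.9% of all tested probe sets. The higher gene was Itgam (change 0.47, SE 0.13), and the median change of the list was -0.13. Their summed value was 62300 to 65900 in Runx3-/- and 66400 to 69100 in WT arrays. With the replicate block the adjusted p was 0.11 for Irf8, 0.10 for Irf4 and 0.11 for Tbx21. Stromal markers summed to 1310 to 1510 in Runx3-/- and 1050 to 1270 in WT arrays with 0 of 5 tested genes called by limma (2 at an unadjusted p of at most 0.05), and lymphoid and plasmacytoid markers to 2280 to 3460 in Runx3-/- and 1560 to 2020 in WT arrays with 0 of 5 called (1 at that level). The stromal sums and the lymphoid and plasmacytoid sums each include 8 genes that were below background in every array. Runx3-/- 3 had the highest of the lymphoid and plasmacytoid sums, with Siglech at 10.18 against 7.46 in Runx3-/- 1 and 8.18 in Runx3-/- 2.

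**Figure D4:**
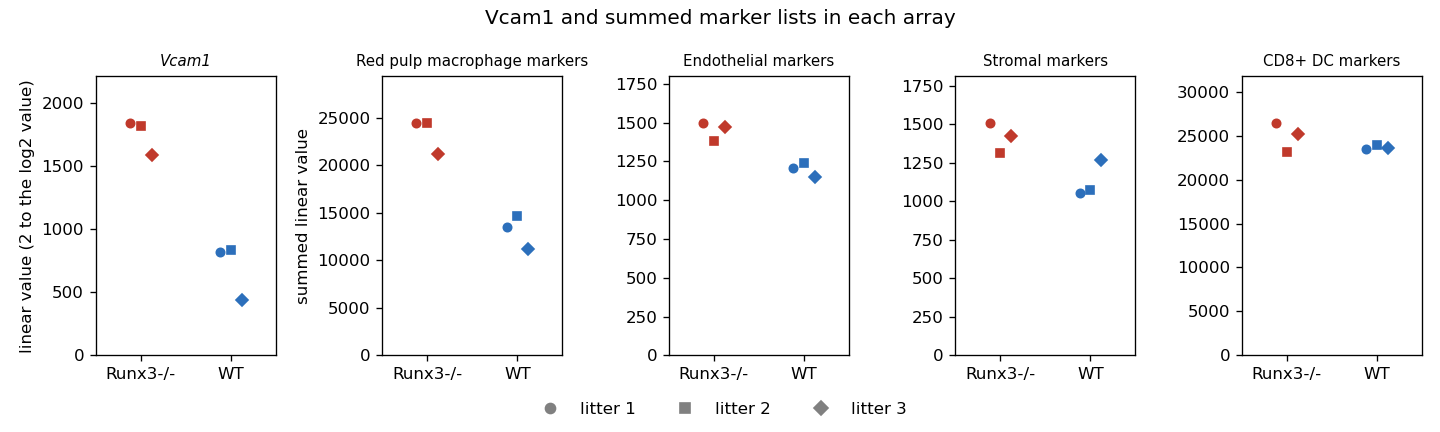
Linear value of Vcam1 (left panel, 2 raised to the log2 value) and summed linear values of 4 marker lists (vertical axes, all from 0) in each Runx3-/- array (red) and WT array (blue), with marker shapes for the litter. WT 3 has the lowest value for Vcam1 and for the red pulp macrophage markers (11200), and among these 5 panels the genotypes overlap for the CD8+ DC markers alone, whose sum is set mostly by genes high in both genotypes. The sums include genes below background in every array. Adgre1, high in both genotypes, adds to the sum of the red pulp macrophage markers.

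Promoter windows from RefSeq (GRCm38.p6), 250 bases before to 50 after the start, were matched for 2 of the 10 genes, F11r and Icam1, and read on both strands for the letters TGTGGT of the RUNX motif, TGGGAA of RBPJ, TGACGT of the DC factor zDC and the NF-kappa-B motif. These occur in 16.8%, 25.6%, 7.51% and 0.411% of 32851 such windows. The Icam1 window held none of them. The F11r window held 1 match, to TGGGAA on the reverse strand, which is shown because it was the only match in either window, 35 bases into the transcribed part, with the match in capitals (chr1:171437583-171437610, + strand, 5′ to 3′).
F11r: atcgcgaggctgTTCCCAttggagttgc
A match of letters is a description and says nothing of binding.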

How the data were processed

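RNA of sorted splenic CD4+ DC was hybridised to Affymetrix arrays, 1 per mouse. The authors normalized the arrays in Partek with RMA, a robust summary over the probes of a probe set, and corrected for GC content. What they deposited is log2 signal. The processing notes of the submitters name mm9 but no software version. Such normalization brings all arrays to like distributions, so an overall shift of expression cannot be seen, and changes near background are understated. The methods name an exon array, while the probe set annotation is that of a gene-level array. The number of arrays limits the precision.

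Values were used as deposited. The 19149 probe sets that reached 6.5 (log2), the background level used by the authors, in 1 array or more were tested in R 4.3.3 with limma 3.58.1 (lmFit, eBayes, two-sided), genotype as the only term, after a test on simulated data. P-values were adjusted over these probe sets by the Benjamini-Hochberg method. A listed gene was read from its probe set of highest mean, and names were matched through Entrez numbers. The members and gene lists were chosen with earlier results of these data known. Named were Runx3, all members, called genes of each list (at most 6, or 4 for marker lists, by smallest p, or the 3 with the smallest p where none was called), and the 3 genes most like Esam and Cadm1; further genes were named after their values were seen. Same-numbered arrays are littermates per the labels, and the deviations of littermates from their group means correlated at 0.158, 0.102 and 0.246 in litters 1, 2 and 3, so the litter was fitted as a replicate block as an alternative. Other alternatives changed the filter, scaling, variance model or test, or left out each array in turn.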

Additional observations from a re-analysis of the deposited data

How the results depend on the processing

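No adhesion gene changed direction in any of the alternatives run. With the litter as a replicate block, 0 probe sets of the array passed an adjusted p of 0.05 (limma, 3430 at an unadjusted p of at most 0.05), so that 0 adhesion genes, 0 related adhesion molecules and 0 cytoplasmic partners passed (no other call on an adhesion gene changed), and Runx3 itself kept its log2 change of -1.98 at an adjusted p of 0.061. By one-way analysis of variance, the test of the methods, 6 probe sets passed after adjustment, and 0 in each of those 3 groups. Leaving out single arrays gave 0 to 205 probe sets against 298 with all 6 (the lowest, 0 and 1, without WT 1 and Runx3-/- 3, then 40 and 75 without Runx3-/- 1 and WT 3), 0 to 2 adhesion genes (0 without WT 1 or Runx3-/- 3), 0 to 3 related adhesion molecules, 0 to 1 cytoplasmic partners, 0 to 1 counter-receptors and a Runx3 change of -2.03 to -1.96 (-1.96 without WT 1, adjusted p = 0.053). At the methods' thresholds 2 adhesion genes passed, against 4 with quantile normalization or median centring, where Cdh5 and F11r came past 1.5-fold, and 2 to 4 when an array was left out. A filter of 7 in 1 array removed Cdh5 from the test, which left 1 called adhesion gene and a median change of 0.22. Without a filter, which brought in Jam2 and Jam3, the median was 0.18. Counter-receptors gave 1 call with that filter of 7, with 6.5 in at least 3 arrays and with a prior variance that follows the mean, and the last gave 2 cytoplasmic partners. Why the calls differ between the variance models was not tested. With the scaling alternatives the share of calls that were higher was 60.0% and 61.6%, against 55.0% as deposited. Values close to 6.5, those of Cdh5 and Icam2, are limited by the background.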
